A study of Homo sapiens with 2 samples.

Results

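The AP-1 family is described here by 10 genes of basic leucine zipper (bZIP) transcription factors, ATF3, FOS, FOSB, FOSL1, FOSL2, JUN, JUNB, JUND, BATF and BATF3, of 19775 genes that the platform annotation names by 1 symbol. The genes were chosen by family name, with the lower ATF3 value on these same arrays already known, so the ATF3 difference is a description and supports nothing. All 22 probe sets annotated to a member were taken, and none of them carried a second gene symbol. Of the members, 4 had several probe sets and 6 had 1. The samples were 1 array of a CD2-positive subclone and 1 array of a CD2-negative subclone of HMC1, an established human mast cell leukaemia line. The sample titles name only the CD2-positive cells a subclone, and the word is used here for both. Both subclones came from the same line by cell sorting with an anti-CD2 antibody, and the labels name no treatment, time or genotype that sets them apart. With 1 array per subclone no difference has a replicate check, no p-value was computed, and the arrays describe these preparations only.

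AP-1 is a dimer. JUN proteins pair with themselves or with FOS proteins, while FOS proteins need a JUN partner to bind DNA well, and the pairs bind the sequence called TRE or the related CRE. Many of these genes are immediate early genes, transcribed within minutes of a growth factor or stress signal and then shut off, and in mast cells KIT and IgE receptor signals are known to induce them. ATF3 is a stress-induced member of the wider ATF/CREB group that can pair with JUN proteins, and BATF and BATF3 lack a transactivation domain and act with JUN and IRF proteins in lymphocytes and dendritic cells.

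The promoters of these genes can hold the element that AP-1 itself binds, and are shown for the members with the largest differences in either direction and for JUN. Windows at RefSeq annotated starts (build GRCh38.p14, 250 bases before to 50 after the start, 300 in all) are called promoter windows here. They were found for 8 of the members, ATF3 with 2 starts, which makes 9 windows. The sequences run 5′ to 3′ on the gene's strand. Capitals mark TRE (TGANTCA), CRE (TGACGTCA), CRE with 1 free base (TGACNTCA) and the CRE core TGACG, on either strand; the core is also contained in TGACGTCA.
ATF3 (chr1:212565157-212565456, strand +): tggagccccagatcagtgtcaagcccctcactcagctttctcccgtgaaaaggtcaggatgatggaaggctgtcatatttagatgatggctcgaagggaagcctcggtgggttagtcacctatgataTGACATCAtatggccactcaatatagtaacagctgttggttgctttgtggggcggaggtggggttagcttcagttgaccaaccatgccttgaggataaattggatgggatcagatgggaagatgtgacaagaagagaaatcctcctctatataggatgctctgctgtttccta
FOSB (chr19:45467746-45468045, strand +): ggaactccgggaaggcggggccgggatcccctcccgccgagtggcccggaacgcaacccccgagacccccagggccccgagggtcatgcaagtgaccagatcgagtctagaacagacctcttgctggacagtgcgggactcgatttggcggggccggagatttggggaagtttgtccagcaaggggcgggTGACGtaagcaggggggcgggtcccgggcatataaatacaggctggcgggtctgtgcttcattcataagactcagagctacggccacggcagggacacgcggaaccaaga
FOSL2 (chr2:28392608-28392907, strand +): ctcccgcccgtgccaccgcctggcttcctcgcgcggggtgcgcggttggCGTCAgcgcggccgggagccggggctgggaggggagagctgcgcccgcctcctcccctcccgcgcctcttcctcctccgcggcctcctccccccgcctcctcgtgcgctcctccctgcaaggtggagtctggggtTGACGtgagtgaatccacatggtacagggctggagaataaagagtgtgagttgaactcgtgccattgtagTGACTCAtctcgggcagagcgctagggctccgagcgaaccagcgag
JUN (chr1:58783998-58784297, strand -): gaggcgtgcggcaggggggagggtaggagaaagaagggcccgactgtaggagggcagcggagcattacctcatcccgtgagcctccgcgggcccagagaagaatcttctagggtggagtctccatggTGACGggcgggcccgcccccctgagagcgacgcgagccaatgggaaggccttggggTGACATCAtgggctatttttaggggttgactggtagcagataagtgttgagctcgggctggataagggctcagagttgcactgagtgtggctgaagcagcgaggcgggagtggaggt
JUND (chr19:18281573-18281872, strand -): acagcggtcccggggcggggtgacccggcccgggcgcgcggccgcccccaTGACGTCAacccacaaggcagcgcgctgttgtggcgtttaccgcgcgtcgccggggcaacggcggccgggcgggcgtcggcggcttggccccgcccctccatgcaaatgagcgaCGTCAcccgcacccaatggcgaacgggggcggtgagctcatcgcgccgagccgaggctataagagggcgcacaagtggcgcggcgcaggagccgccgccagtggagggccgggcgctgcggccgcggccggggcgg

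TGACNTCA stood in 3 of the 9 windows, against 7.72% of all 35116 promoter windows in the table. It read TGACATCA at -123 from the start in the first ATF3 window and at -67 in the JUN window, and TGACGTCA, the full CRE, at -200 in the JUND window. The full CRE was in 1.85% of all windows. FOSL2 was the only member with TGANTCA, which read TGACTCA at position 5 after the start, against 7.71% of all windows. TGACG was found in 6 of the 9 windows, those of FOS, FOSB, FOSL2, JUN, JUNB and JUND, and in 24.6% of all windows. The second ATF3 window and the BATF window held none of these 4 motifs. All windows lie at annotated starts, and whether each start, the second of ATF3 included, acts as a promoter in these cells was not tested. The second ATF3 window is counted among the 9 by annotation only. Any ATF3 promoter outside its windows was not searched. TATAAA, the letters of the TATA box, stood in 4 windows (11.5% of all) at -33 in FOS, -30 in FOSB, -31 in JUNB and -230 in the second ATF3 window. CCAAT was in 4 windows (34.6% of all), and the CArG box, bound by serum response factor, was in none (1.29% of all). The windows reach 250 bases before the start, so elements further upstream were not searched, and a gene without a match here may hold one there. Members with a negative and members with a positive difference both held motifs of the CRE type. These matches are letters in a window, chosen after the sequences were seen, and say nothing of binding.

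The values are RMA intensities, which depend on the probes, so levels are compared between subclones and not between genes. A gene was compared where its brighter array reached an intensity of 64 (log2 6), and a gene takes the values of its probe set that is brightest on average (mean log2). Of the mast cell markers 8 of 9 were measured and 7 of the 8 reached 64, the exception being FCER1A at 27 in CD2-positive and 8 in CD2-negative cells. KIT read 1373 in CD2-positive and 1328 in CD2-negative cells, but other mast cell markers stood further apart: TPSAB1 read 4806 in CD2-positive and 3142 in CD2-negative cells, CPA3 1220 in CD2-positive and 207 in CD2-negative cells, and HPGDS 187 in CD2-positive and 80 in CD2-negative cells. HDC read 1715 in CD2-positive and 1219 in CD2-negative cells, MITF 276 and 154, and GATA2 181 and 164. The part of these marker differences in the AP-1 family values was not tested. CD2, the sorted antigen, read 219 in CD2-positive and 13 in CD2-negative cells. None of 23 measured markers of T and NK, B, monocyte, neutrophil, erythroid and fibroblast cells reached 64, and the highest read 28. The 18 hybridisation control probe sets had a median log2 difference of -0.18 and all were below 0, so centring on them adds 0.18 to every difference; the median over all 3564 compared genes was -0.05 as deposited and 0.14 after such centring. In bulk RNA, fewer cells of a type and less RNA per cell cannot be told apart.

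**Figure D1:**
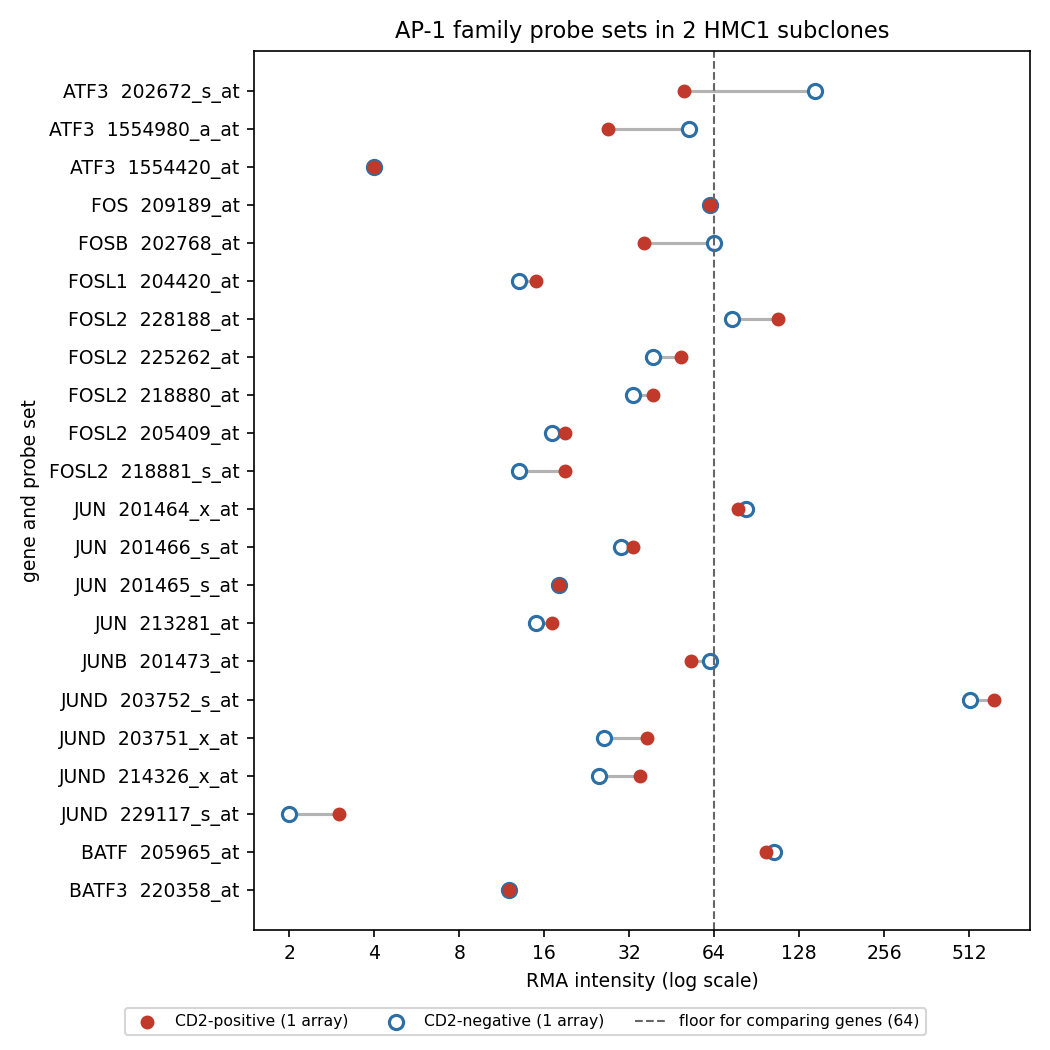
RMA intensity (log scale) of the 22 AP-1 family probe sets, with filled points for the CD2-positive and open points for the CD2-negative array; the dashed line is the floor of 64. The widest gap is that of ATF3 probe set 202672_s_at at 50 in CD2-positive and 146 in CD2-negative cells, while all FOSL2 and JUND probe sets have the filled point on the right.

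Of the 10 members 6 reached the floor: ATF3, FOSB, FOSL2, JUN, JUND and BATF. In the CD2-positive subclone ATF3 was at least 2-fold lower and no member was at least 2-fold higher. Over all compared genes 0.758% were at least 2-fold lower and 1.21% at least 2-fold higher, and since the family was chosen with ATF3 in view nothing is read from the count of 1. In numbers these were 43 genes higher and 27 lower, or 71 higher and 14 lower with the hybridisation controls as the centre, where ATF3 was again past 2-fold at -1.36. Among the 6 members 2 differences were positive and 4 negative, with a median of -0.088, and all compared genes were 41.9% positive and 55.7% negative. After centring on the hybridisation controls 4 members were positive and 2 negative, with a median of 0.095, against 69.2% positive and 30.8% negative over all compared genes. FOSB, with its brighter array at exactly 64, lay just inside the floor, and FOS and JUNB, both with a brighter array of 62, lay just outside it. ATF3 and FOSB reached 64 in CD2-negative cells only, the subclone where they were higher. Their places among compared genes and neighbours therefore describe genes kept by their brighter array and support nothing.

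ATF3, which encodes a stress-induced bZIP factor that is also a target of p53 and of ATF4, had the largest difference of the family. Probe set 202672_s_at read 50 in CD2-positive and 146 in CD2-negative cells, a 2.92-fold lower value in CD2-positive cells (log2 difference -1.55). Only 7 of the 3564 compared genes had a more negative difference, but ATF3 itself passed the floor only through its CD2-negative array. Its second probe set, 1554980_a_at, read 27 in CD2-positive and 52 in CD2-negative cells, a log2 difference of -0.95. The third, 1554420_at, read 4 on both arrays, which is the highest value of the 27 probe sets for Bacillus transcripts that human RNA does not hold, and so gives no comparison. Rounding to whole numbers leaves the first difference between -1.57 and -1.53 and the second between -0.99 and -0.91, so the 2 readable probe sets gave different sizes in the same direction. The mean over all 3 probe sets was -0.83 and its brighter array then lay below the floor. For scale, the differences of the 2 brightest probe sets of a gene, over 937 genes, had a spread of 0.13 (SD for 1 probe set), which covers probe behaviour within these arrays only.

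Among the FOS proteins, the partners that need a JUN protein, the values went different ways. FOSB, an immediate early FOS protein gene, read 36 in CD2-positive and 64 in CD2-negative cells (log2 difference -0.83, 1.78-fold), short of the 2-fold rule. The difference was -0.55 under a lowess correction on mean level and -0.65 when centred on the hybridisation controls. It had 1 probe set, and 45 compared genes had a more negative difference. FOS, the prototype of the family, read 62 on both arrays. FOSL2, which encodes FRA-2, read 108 in CD2-positive and 74 in CD2-negative cells on probe set 228188_at (log2 difference 0.55), and 178 compared genes lay above it. Its other 4 probe sets, all below the floor, gave differences of 0.33, 0.24, 0.16 and 0.55, so all 5 were positive. FOSL1, which encodes FRA-1, read 15 in CD2-positive and 13 in CD2-negative cells, below the floor. FOSB and FOSL2 therefore had differences of opposite sign.

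Among the JUN proteins, which can bind DNA without a FOS partner, JUND was the one with 4 positive probe sets of 4. JUND, often described as the JUN protein present in resting cells, read 631 in CD2-positive and 515 in CD2-negative cells on its brightest probe set (log2 difference 0.29, 1.23-fold). Its other probe sets read 37 and 35 in the CD2-positive subclone, against 26 and 25 in the CD2-negative one, and the dimmest read 3 in CD2-positive and 2 in CD2-negative cells, near background. Of 803 compared genes with at least 4 probe sets, all probe sets were positive in 8.09% and all negative in 4.73%. FOSL2 and JUND were among the 65 genes of the first kind. JUND counts there only with its dimmest probe set, whose difference can be 0 within the rounding.

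JUN itself read 78 in CD2-positive and 83 in CD2-negative cells (log2 difference -0.09). Its 3 other probe sets read 33, 18 and 17 in the CD2-positive subclone, against 30, 18 and 15 in the CD2-negative one, so its probe sets did not share a sign. The sign of JUN also turned with the mean of all probe sets (0.06), with plain probe set identifiers (0.18) and when centred on the hybridisation controls (0.09). JUNB, a JUN protein known to restrain JUN, read 53 in CD2-positive and 62 in CD2-negative cells (log2 difference -0.23), below the floor.

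The BATF genes had small differences. BATF read 98 in CD2-positive and 104 in CD2-negative cells (log2 difference -0.09, or 0.10 when centred on the hybridisation controls). BATF3, known for its role in dendritic cell development, read 12 on both arrays. That equality holds within the rounding, which allows -0.12 to 0.12.

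**Figure D2:**
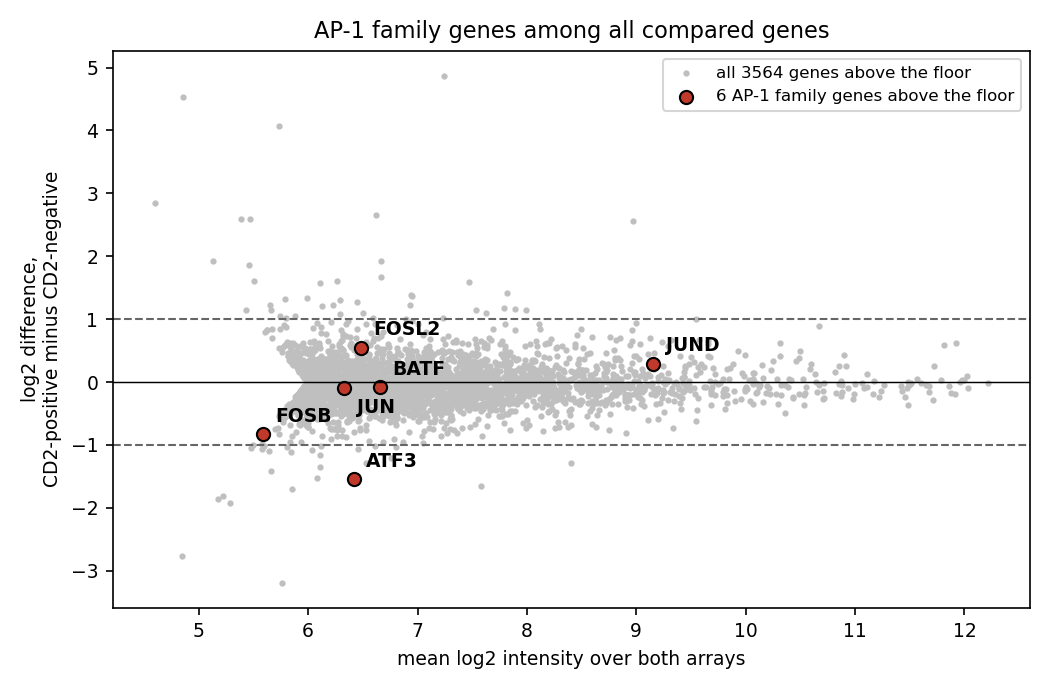
Log2 difference, CD2-positive minus CD2-negative, against mean log2 intensity for all 3564 compared genes (grey) and the 6 AP-1 family genes above the floor (red); dashed lines mark 2-fold. ATF3 lies below the lower line at -1.55, FOSB above it at -0.83, and FOSL2 and JUND lie above 0.

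The family members lie on 5 chromosomes, and neighbouring genes were read beside each. In the RefSeq gene order of GRCh38.p14, GARIN4 is the 1 protein-coding gene between ATF3 and BATF3 on chromosome 1, and JDP2 the 1 between FOS and BATF on chromosome 14, so each pair has the same neighbours. The 20 compared genes nearest to ATF3, 10 on each side, had a median log2 difference of -0.31, with 16 of 20 below 0 and a range from -0.69 to 0.33. The 2 nearest before it were PPP2R5A (0.20) and NENF (-0.24), and the 2 nearest after it were EPRS1 (-0.69) and IARS2 (-0.40). ATF3 lay below all 20 of them and 1.23 below their median. BATF3, in the same stretch, read 12 on both arrays, which is below the floor, so it was not compared. When centred on the hybridisation controls the neighbour median was -0.13 and ATF3 -1.36. The part of this stretch in the ATF3 value was not tested.

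The neighbours of the other compared members had medians near 0: 0.06 for FOSB, -0.02 for FOSL2, -0.04 for JUN, -0.07 for JUND and -0.09 for BATF. Centred on the hybridisation controls these medians were all positive, from 0.088 to 0.24, and that of FOSB was -0.11 with a floor of log2 5. FOSB lay below all 20 of its neighbours. FOSL2 lay above 19 of 20 and JUND above 17 of 20.

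**Figure D3:**
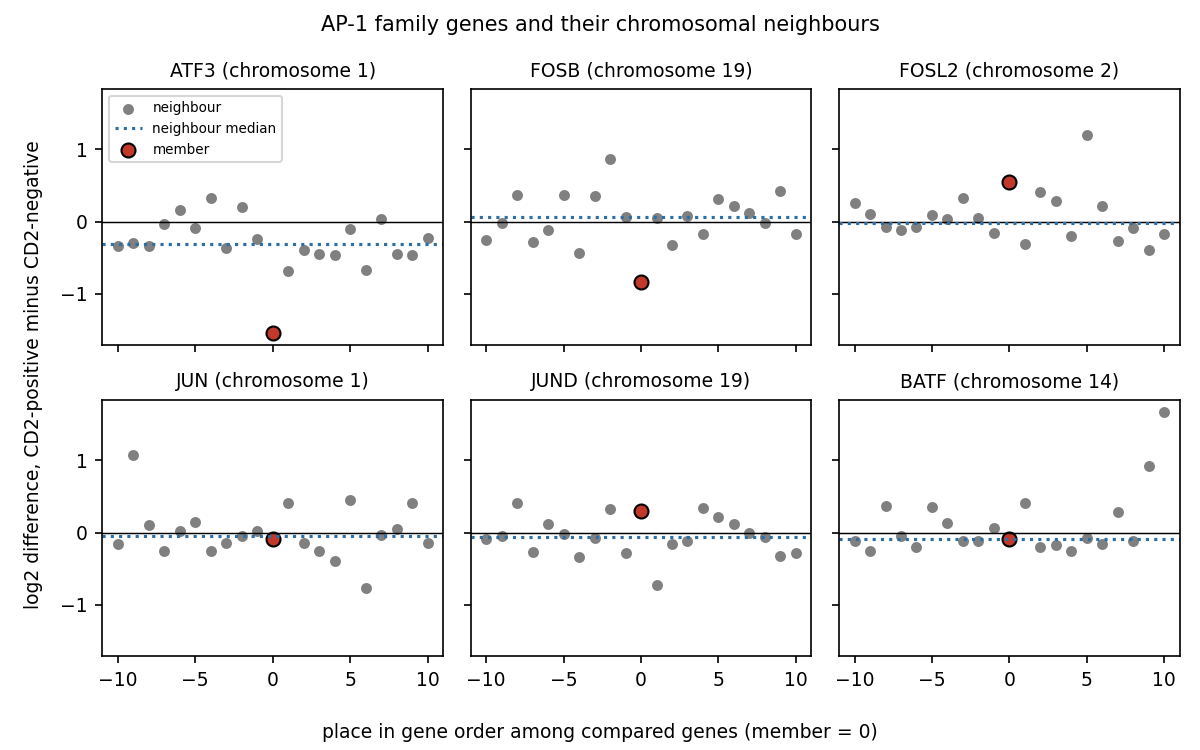
Log2 difference, CD2-positive minus CD2-negative, of each AP-1 family gene above the floor (red, at place 0) and of the 10 nearest compared genes on each side in gene order (grey); the dotted line is the neighbours' median. The ATF3 neighbours have a median of -0.31, and ATF3 lies below all of them.

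The genes around the family were read from 6 lists. None of their genes above the floor reached 2-fold in either direction, although with a floor of log2 5 the cyclin D1 gene CCND1, an AP-1 target, would be counted at 22 in CD2-positive and 44 in CD2-negative cells (2-fold lower). On a list of other bZIP genes, drawn up as possible partners and relatives of the AP-1 proteins, 13 of 31 measured genes were above the floor. Of the 13, 10 (76.9%) had negative differences, against 55.7% of all compared genes. Centred on the hybridisation controls 6 of 13 (46.2%) were negative, against 30.8%. Their median was -0.18, or 0.00 after centring on the hybridisation controls, below the 0.14 of all compared genes on that scale. XBP1, a factor of the unfolded protein response, read 58 in CD2-positive and 91 in CD2-negative cells (-0.65). CEBPZ read 71 in CD2-positive and 93 in CD2-negative cells (-0.39). It was listed by its symbol and is in these counts, although its protein is not a bZIP factor. MAF, a large MAF factor gene, read 190 in CD2-positive and 172 in CD2-negative cells, the most positive of the list at 0.14.

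The integrated stress response is the pathway in which ATF4 induces ATF3. Of its 27 measured genes 21 were above the floor, and 16 of the 21 (76.2%) had negative differences (median -0.18), against 55.7% of all compared genes. Centred on the hybridisation controls 10 of the 21 (47.6%) were negative (median 0.00), against 30.8% of all compared genes. TRIB3, an ATF4 target, read 83 in CD2-positive and 126 in CD2-negative cells (-0.60). SESN2, a stress-induced regulator of mTORC1, read 74 in CD2-positive and 102 in CD2-negative cells (-0.46), and its other probe set above the floor gave -0.68. ATF4 itself read 821 in CD2-positive and 958 in CD2-negative cells (-0.22). DDIT3, which encodes the stress factor CHOP, read 121 in CD2-positive and 151 in CD2-negative cells (-0.32). ATF4, DDIT3, ATF5, CEBPB and CEBPG, all above the floor, are also on the bZIP list, so the lists and their shares are not separate.

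Other immediate early genes, which the same signals induce as FOS, went both ways as deposited: of 21 above the floor 10 were positive and 10 negative, with a median of 0.00, while all compared genes were 41.9% positive and 55.7% negative. Centred on the hybridisation controls 16 of the 21 (76.2%) were positive, against 69.2% of all compared genes, with a median of 0.18. IER5 read 362 in CD2-positive and 638 in CD2-negative cells (-0.82). GADD45A, a growth arrest gene known as a p53 target, read 176 in CD2-positive and 300 in CD2-negative cells (-0.77). At the other end, SGK1, a kinase gene induced by serum and glucocorticoid, read 455 in CD2-positive and 271 in CD2-negative cells (0.75). EGR1, a zinc finger factor gene, read 648 in CD2-positive and 424 in CD2-negative cells (0.61), with 0.20 for its other probe set reaching 64. DUSP4, a phosphatase gene induced by ERK, read 309 in CD2-positive and 208 in CD2-negative cells (0.57), and its 3 probe sets reaching 64 ranged over 0.33 to 0.57. 

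Of the upstream kinases, serum response factors and JUN ubiquitin ligases, 8 of 35 measured genes were above the floor, with a median of 0.02. As deposited 4 were positive and 3 negative. Centred on the hybridisation controls 5 (62.5%) were positive, against 69.2% of all compared genes, with a median of 0.21. RPS6KA5, which encodes the chromatin kinase MSK1, read 122 in CD2-positive and 85 in CD2-negative cells (0.52). MAP3K2, a kinase of the JNK and ERK5 pathways, read 326 in CD2-positive and 397 in CD2-negative cells (-0.28). SRF, which drives FOS through its promoter, read 67 on both arrays.

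Of genes known as AP-1 targets 13 of 37 measured genes were above the floor, and 10 of the 13 (76.9%) had positive differences, against 41.9% of all compared genes. Centred on the hybridisation controls the share of positive genes was again 76.9%, against 69.2% of all compared genes. MT2A, a metallothionein gene close in sequence to its relatives, read 623 in CD2-positive and 396 in CD2-negative cells (0.65). CCL2, a monocyte chemokine gene, read 1009 in CD2-positive and 645 in CD2-negative cells (0.65). The 3 negative genes were HMOX1, the heme oxygenase gene, at 163 in CD2-positive and 224 in CD2-negative cells (-0.46), GCLM (-0.32) and CDKN1A (-0.27).

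The partners of BATF proteins and other mast cell factors had 7 of 16 measured genes above the floor and a median of 0.06. Of the 7, 5 (71.4%) were positive and 1 negative, against 41.9% positive over all compared genes. Centred on the hybridisation controls all 7 were positive (median 0.24), against 69.2% of all compared genes. STAT5B, a signal transducer downstream of KIT and cytokine receptors, read 86 in CD2-positive and 67 in CD2-negative cells (0.36). GATA1, a blood cell lineage factor gene, read 86 in CD2-positive and 70 in CD2-negative cells (0.30). CCND1, SGK1, EGR1, DUSP4, MAF, ATF4, DDIT3, SRF, CD44, VEGFA and the 3 negative targets were added as examples after their values were seen.

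**Figure D4:**
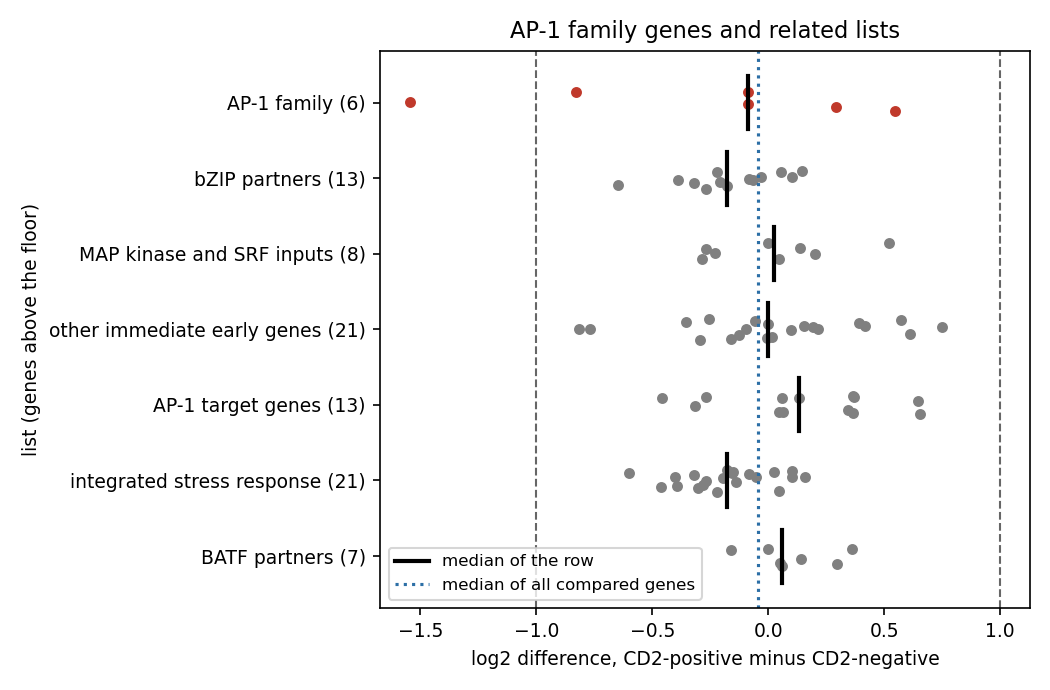
Log2 difference, CD2-positive minus CD2-negative, of genes above the floor in the AP-1 family (red) and in 6 related lists (grey), with each row's median as a black bar and the median of all compared genes as a dotted line; the dashed lines mark 2-fold. ATF3 at -1.55 is the 1 gene outside the dashed lines.

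The 5 compared genes whose pair of log2 values lay nearest to those of ATF3 were PLAT, MDM2, ADM, MOSPD1 and GPAT3, by Euclidean distance over the 2 arrays. PLAT, which encodes tissue plasminogen activator, read 59 in CD2-positive and 144 in CD2-negative cells, at a distance of 0.24. MDM2, the ubiquitin ligase of p53, read 61 in CD2-positive and 127 in CD2-negative cells (0.35), and ADM, which encodes adrenomedullin, read 43 in CD2-positive and 110 in CD2-negative cells (0.46). MOSPD1 read 69 in CD2-positive and 139 in CD2-negative cells (0.47), and GPAT3, an enzyme gene of glycerolipid synthesis, read 40 in CD2-positive and 115 in CD2-negative cells (0.47). Of these genes PLAT, MDM2, ADM and GPAT3, like ATF3, reached the floor in CD2-negative cells only. Likeness over 2 arrays places genes by level and difference only.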

How the data were processed

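RNA of 2 HMC1 subclones had been hybridised to Affymetrix U133 Plus 2.0 arrays, 1 per subclone. The deposited intensity values were normalised by the authors with RMA (Affymetrix Expression Console 1.1), as the tools named per the submitters' processing notes show; they are whole numbers on a linear scale, and the rounding is seen in the values. RMA forces the probe intensities of both arrays to 1 distribution, so a difference in total signal between the preparations cannot be read. The deposited values summed to 1860969 for CD2-positive and 1875750 for CD2-negative cells. Rounding makes low values coarse. Precision is limited by the number of arrays.

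Values were converted to log2, and differences are CD2-positive minus CD2-negative. Of 54675 probe sets, 41097 carried 1 symbol, 1801 several and 11777 none; only the first kind was used. Entrez identifiers of 41043 probe sets matched RefSeq. The files name no genome build. Rounding bounds take each intensity 0.5 either way. The size rule was 2-fold at a floor of log2 6. Neighbours were the 10 compared genes on each side. Members and lists were chosen with earlier results of these data known. Named list genes were those past 2-fold or, with none, the 2 largest differences of a list; CD2 and KIT, the 2 nearest compared genes on each side of ATF3 and the 5 genes of nearest values were also fixed by rule. Alternatives were other floors, size rules, probe set summaries, centrings, a lowess correction (span 0.3) and other windows. Python 3.11.15, pandas 2.3.3 and statsmodels 0.14.6 were used.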

Additional observations from a re-analysis of the deposited data

How the results depend on the processing

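No paired analysis was possible because each subclone has 1 array. The ATF3 log2 difference of -1.55 was -0.83 with the mean of its 3 probe sets, 0 with plain probe set identifiers, which leave only the probe set at background, and -1.36 when centred on the hybridisation controls; it moved by less than 0.13, the within-array spread, under median centring and lowess correction. The count of members at least 2-fold lower, 1, was 2 at a 1.5-fold rule, where FOSB joins ATF3, and 0 at a 3-fold rule, with averaged probe sets or with plain identifiers. The member median of -0.088 was -0.63 at a floor of log2 7, which leaves 2 members, -0.46 with averaged probe sets, also over 2, and 0.095 when centred on the hybridisation controls. Over all genes the 43 higher and 27 lower became 77 and 48 at a floor of log2 5, 24 and 8 at log2 7, 307 and 380 with no floor, 151 and 134 at 1.5-fold, 15 and 7 at 3-fold, 26 and 13 with averaged probe sets, 25 and 12 with plain identifiers, and 71 and 14 when centred on the hybridisation controls; the lowess correction gave 53 and 17. The cause of these shifts was not tested. Low signal limits FOSL1, BATF3 and the dim probe sets of JUN, JUND and FOSL2, where 1 unit of rounding is a large relative change.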
